A study of Mus musculus with 8 samples.

Results

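The genes encoding the proteins of the cytosolic ribosome were examined in EMS404 cells, a mouse line of myofibroblastic hepatic stellate cells (MF-HSCs). A gene was taken where a probe set carried exactly 1 gene symbol and that symbol was Rpl, Rps or Rplp followed by a number and at most 1 letter. This gave 63 genes of 22180 measured, 40 of the large subunit and 23 of the small subunit, from 102 probe sets. EMS404 cells had been transfected by lipofection with 20 nM of an siRNA against Bnc2, a zinc finger transcription factor gene (siBNC2), or with 20 nM of a non-targeting siRNA (siCTRL), and both groups were collected after 48 h. Each group held 4 samples with 1 Affymetrix mouse gene array each, so that both groups shared the line, the transfection and the time. The comparison asked which transcripts differed once Bnc2 was silenced. It rests on 1 cell line and 1 siRNA against Bnc2. RNA came from whole cultures, in which fewer cells of a type and less RNA per cell cannot be told apart.

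The cytosolic ribosome translates nuclear-encoded mRNAs. Its small subunit reads the mRNA, and its large subunit joins amino acids and releases the growing chain through an exit tunnel. The mRNAs of ribosomal proteins carry a run of pyrimidines at their 5′ end (the 5′ terminal oligopyrimidine tract, 5′ TOP). Through it their translation answers together to mTOR signalling. Some ribosomal proteins have a tissue-restricted paralog, and some act outside the ribosome, for example by binding Mdm2 when ribosome assembly fails.

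Values are log2 values per gene, the mean of its probe sets, and differences are siBNC2 minus siCTRL on the log2 scale. The base was taken from RMA, the method that made the values, since the table does not name it. The highest value, 19.9, lies above what RMA usually gives, so that the scale of the differences rests on this reading. The silenced gene itself, Bnc2, lay at 8.26, 8.41, 8.37 and 9.03 on siCTRL arrays 1 to 4 and at 7.07, 6.78, 6.72 and 8.18 on siBNC2 arrays 1 to 4, a difference of -1.33 ± 0.31 (SE of limma). Both arrays numbered 4 stood apart from the others. Interferon-stimulated genes (17 measured) deviated from their own means by -3.12 on siCTRL array 4 and by -2.67 on siBNC2 array 4, against -0.07 to 1.64 on the other 6 arrays. Stellate cell and myofibroblast markers averaged 12.0 to 12.3 on the 8 arrays, with Lum and Thy1 the 2 of 12 near background. Des of the same list was also low, with a mean of 5.70 in siCTRL and 6.07 in siBNC2. Hepatocyte, macrophage, endothelial and cholangiocyte lists averaged 4.90 to 5.95.

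No ribosomal protein gene passed limma's test after adjustment over the 22180 genes (0 of 63, with 0% of all genes called). The silenced gene Bnc2 did not pass either (unadjusted limma p of 0.00179), so 0 of 63 does not show that the members were unchanged. At an unadjusted p under 0.05 there were 2 members, Rps4l and Rpl39l, both higher in siBNC2, where 3.19% of all genes reached that level. With the array number as a block in limma there were 3, with Rps7 added, and 5.44% of all genes. The groups did not overlap for 3 members, Rps4l, Rpl39l and Rplp0, where 2.16% of all genes did not overlap. The mean was higher in siBNC2 for 43 of the 63 members (68.3%), against 51.9% of all genes. The median difference was 0.07 over the members and 0.01 over all genes. All members were measured on the same arrays, so the 43 genes are not 43 independent observations.

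The large subunit lay further above 0 than the small subunit, but the order turned when either of 2 arrays was left out. Of the large-subunit genes 31 of 40 were on average higher in siBNC2 (median difference 0.09, range -0.26 to 0.49). Of the small-subunit genes 12 of 23 were (median 0.02, range -0.26 to 0.60). The gap between the subunit medians, 0.07, was smaller than the limma SE of any single member, and it became -0.03 when siBNC2 array 4 was left out and -0.0031 when siCTRL array 1 was. Without siBNC2 array 4 the medians were 0.19 for the large and 0.22 for the small subunit, and without both arrays numbered 4 they were 0.17 and 0.13. The median of the small subunit was below 0 when siCTRL array 3 or 4, or siBNC2 array 1, 2 or 3, was left out, with values of -0.01, -0.01, -0.02, -0.03 and -0.08.

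**Figure D1:**
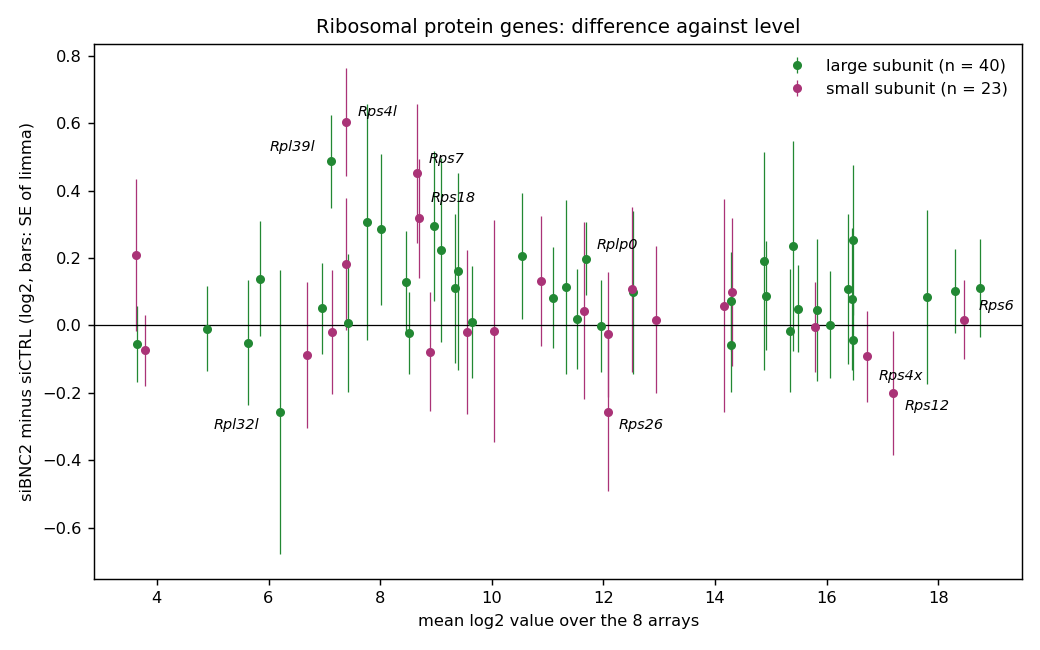
Difference between siBNC2 and siCTRL (y axis, log2) against the mean log2 value over the 8 arrays (x axis) for the 63 ribosomal protein genes, with points coloured by subunit and bars of 1 SE from limma. 52 of the 63 genes lie within 1 SE of 0, 60 lie within 2 SE, and Rps4l (0.60) and Rpl39l (0.49) lie highest.

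The start sites are shown because the 5′ TOP was a property that the choice of genes had not used. RefSeq start sites on GRCm38.p6 were found for 48 of the 63 genes, 57 starts in all. A C followed by at least 4 pyrimidines, at or within 2 bases of the start on the coding strand, stood at 17 of these 57 starts (29.8%), against 2942 of 32851 starts of all genes (8.96%). Each window below runs from 15 bases before the start over 15 bases from it, 5′ to 3′ on the coding strand, with the tract in capitals. Rps6 encodes the substrate of the S6 kinases (chr4:86857353-86857382, minus strand), Rps18 a protein of the small-subunit head (chr17:33955651-33955680, minus strand), Rpl28 (chr7:4792950-4792979, plus strand) and Rpl15 (chr14:18270972-18271001, minus strand) proteins of the large subunit.
Rps6: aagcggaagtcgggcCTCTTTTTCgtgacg
Rps18: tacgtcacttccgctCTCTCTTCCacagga
Rpl28: ccgcctctcgtgtctCTCTTTCCgtctccg
Rpl15: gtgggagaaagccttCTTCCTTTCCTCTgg
The tract ran over 9 bases in Rps6, 9 in Rps18, 8 in Rpl28 and 13 in Rpl15. The windows of Rplp0 (chr5:115559452-115559481, plus strand), Rps7 (chr12:28635939-28635968, minus strand) and Rpl39l (chr16:10170213-10170242, plus strand), described below for the values they showed, held no such tract at the annotated start.
Rplp0: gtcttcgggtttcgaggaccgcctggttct
Rps7: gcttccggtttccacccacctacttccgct
Rpl39l: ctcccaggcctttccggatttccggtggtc
The 16 genes with a tract at a start had a median difference of 0.02, with 11 of 16 higher in siBNC2. The 32 genes without one under this rule had a median of 0.09, with 23 of 32 higher. Some of these, such as Rpl4 and Rpl13, hold a run of pyrimidines further from the annotated start. The rule therefore does not show which mRNAs lack a 5′ TOP. Within the 250 bases before and 50 after the start, on either strand, GGAAGT, the core bound by ETS factors, occurred in 25 of 57 member sequences (43.9%) and 23.8% of all, TATAAA in 5 (8.77%) and 13.6%, and CATGGC in 13 (22.8%) and 15.5%. These matches describe the letters of the annotated starts. For Rps4l and the other 14 members no start was read here.

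The members with the lowest p were paralogs. Rps4l, a relative of the X-linked Rps4x that RefSeq lists as a transcribed pseudogene, lay at 6.98, 7.04, 7.10 and 7.26 on siCTRL arrays 1 to 4 and at 7.39, 8.08, 7.78 and 7.54 on siBNC2 arrays 1 to 4. All 4 siBNC2 arrays were above all 4 siCTRL arrays, and siBNC2 array 2 was the highest. The difference was 0.60 ± 0.16 (SE), with an unadjusted limma p of 0.00382 and an adjusted p of 1.00. The exact two-sided permutation p was 0.0286, the smallest that 4 against 4 arrays allow. Every gene whose groups do not overlap gets this permutation p, so it restates the separation and adds no support. Rps4x, the core gene of Rps4l, lay at 16.60, 16.85, 17.05 and 16.61 in siCTRL and at 16.65, 16.84, 16.67 and 16.59 in siBNC2. The groups overlapped, and the difference was -0.09 ± 0.14.

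Rpl39l encodes a version of the exit-tunnel protein RPL39 that is known from male germ cells. It lay at 6.73, 7.00, 6.90 and 6.90 on siCTRL arrays and at 7.45, 7.15, 7.65 and 7.22 on siBNC2 arrays. The lowest siBNC2 array, number 2, was above the highest siCTRL array, also number 2. The difference was 0.49 ± 0.14, with an unadjusted limma p of 0.00559 and an adjusted p of 1.00. With the array number as a block the unadjusted limma p was 0.00916. The exact permutation p of 0.0286 again only restates that the groups did not overlap. Rpl39 itself lay between 8.41 and 8.70 in siCTRL and between 8.38 and 8.65 in siBNC2, with a difference of -0.02 ± 0.12. Probes of a paralog can bind transcripts of a near-identical copy, so that the values of Rps4l and Rpl39l are uncertain to that extent.

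The groups overlapped for the other 5 paralogs. Rpl10l, which stands in for the X-linked Rpl10 in spermatocytes, differed by 0.14 ± 0.17, or by 0.02 without siBNC2 array 1. Rpl3l, the heart and skeletal muscle form of Rpl3, lay near background at 4.75 to 5.12 and differed by -0.01 ± 0.13. Rps27l, a p53-responsive relative of Rps27, spread from 9.57 to 10.51 in siCTRL and from 9.11 to 10.74 in siBNC2, with a difference of -0.02 ± 0.33. Rpl32l lay at 4.82, 6.64, 6.74 and 7.15 in siCTRL and at 5.96, 6.29, 6.16 and 5.91 in siBNC2. Its siBNC2 arrays lay inside the siCTRL spread through siCTRL array 1, and the other 3 siCTRL arrays were above all siBNC2 arrays. The difference was -0.26 ± 0.42. Without siCTRL array 1 it was -0.76, with an unadjusted limma p of 0.00142 that did not pass after adjustment, and without siCTRL array 4 it was 0.01. Rpl6l, a pseudogene in RefSeq, differed by -0.02 ± 0.18. Of the 7 paralogs 3 had a higher mean in siBNC2, against 40 of the 56 core genes.

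**Figure D2:**
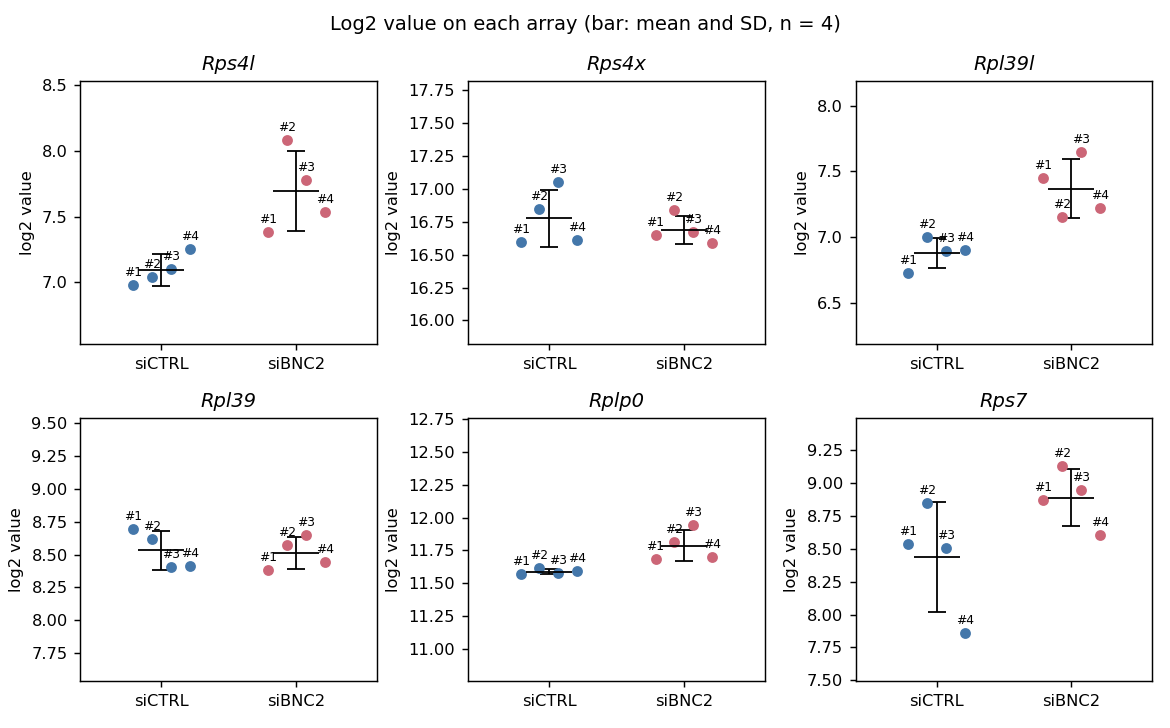
Log2 value (y axis) of 6 members on each of the 8 arrays, with the array number beside each point, bars of mean and SD (n = 4 arrays a group) and y axes of equal span. The groups are apart for Rps4l, Rpl39l and Rplp0 (the mean of 2 probe sets that overlap when taken alone) and overlap for Rps4x, Rpl39 and Rps7.

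The ribosomal stalk, through which translation factors reach the large subunit, is built from Rplp0, Rplp1 and Rplp2. Rplp0, the base of the stalk and a common reference gene in RT-qPCR, lay at 11.57, 11.61, 11.58 and 11.59 on siCTRL arrays and at 11.69, 11.81, 11.95 and 11.70 on siBNC2 arrays. The SD of the siCTRL arrays was 0.02, and each siBNC2 array lay above them. The difference was 0.20 ± 0.11, with an unadjusted limma p of 0.0958. The exact permutation p of 0.0286 here too only restates that the groups did not overlap. Both probe sets of Rplp0 were higher in siBNC2 on average, by 0.12 in the set with a mean of 9.40 and by 0.27 in the set with a mean of 14.0, but in each set taken alone the arrays overlapped. On siCTRL arrays 1 to 4 the weaker set lay at 9.47, 9.61, 9.20 and 9.07. The brighter set moved the opposite way, at 13.67, 13.62, 13.95 and 14.11. The small SD and the separation of the groups therefore rest on averaging these 2 sets. Rplp1 lay between 14.25 and 14.40 in siCTRL and at 14.37, 14.42, 14.37 and 13.90 in siBNC2. Its difference was -0.06 ± 0.14, with the low value on siBNC2 array 4. Rplp2 was near background with its 1 probe set of a single symbol and differed by -0.05 ± 0.19.

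RPL5 and RPL11 carry the 5S ribosomal RNA into the large subunit and bind Mdm2. Rpl5 lay at 8.35 on siCTRL array 1 and between 9.59 and 9.69 on the other siCTRL arrays, and at 9.12, 9.76, 9.41 and 9.62 in siBNC2. The difference, 0.16 ± 0.29, was carried by siCTRL array 1 and became -0.16 without it. A brighter probe set annotated with 2 symbols, with a mean of 12.55, did not show this low value. It lay at 12.84 on siCTRL array 1, against 12.41 to 12.73 on the other siCTRL arrays, and differed by -0.11. Rpl11 differed by 0.05 ± 0.14. Rpl6 followed Rpl5 in its low value on siCTRL array 1, with 8.18, 8.86, 9.13 and 9.10 in siCTRL and 8.86, 9.48, 9.01 and 9.11 in siBNC2, a difference of 0.30 ± 0.22 that was 0.08 without that array.

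Further large-subunit members overlapped between the groups. Rpl3, whose protein lies close to the peptidyl transferase centre, differed by 0.11 ± 0.26. Rpl38, known for its part in the translation of Hox mRNAs in mouse embryos, lay between 17.36 and 18.35 in siCTRL and between 17.31 and 18.29 in siBNC2 and differed by 0.09 ± 0.26. Rpl41, which encodes the shortest protein of the ribosome, differed by 0.05 ± 0.21, and Rpl22, an RNA-binding protein needed in T cell development, by 0.01 ± 0.21. Rpl26, a large-subunit protein that binds p53 mRNA, lay at 7.85, 7.78, 7.75 and 8.13 in siCTRL and at 7.83, 8.48, 8.67 and 7.67 in siBNC2. Only siBNC2 arrays 2 and 3 were above the siCTRL arrays, and the difference was 0.28 ± 0.22. It was 0.11 without siBNC2 array 3 and 0.53 without both arrays numbered 4. The value of Rpl26 rests on 1 probe set with a mean of 8.02. A brighter probe set annotated with 2 symbols, with a mean of 16.3, differed by 0.02. Rpl30 ranged from 6.88 to 8.33 in siCTRL and from 7.33 to 8.57 in siBNC2, with a difference of 0.31 ± 0.35 that was 0.06 without siCTRL array 4 and 0.09 without siBNC2 array 3. Its brighter probe sets annotated with several symbols, with means of 17.2, 16.7 and 13.7, differed by 0.16, 0.14 and 0.04. The other 23 large-subunit members had differences from -0.06 (Rpl27a) to 0.25 (Rpl32), 19 above 0, with SEs from 0.11 to 0.32.

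In the small subunit, Rps7, which takes part in making 18S ribosomal RNA, had the highest difference after Rps4l. It lay at 8.53, 8.85, 8.50 and 7.86 in siCTRL and at 8.87, 9.13, 8.95 and 8.60 in siBNC2. The groups overlapped through siCTRL array 2 and siBNC2 array 4. The difference was 0.45 ± 0.21, with an unadjusted limma p of 0.0548 and an exact permutation p of 0.0571, and it was 0.26 without siCTRL array 4. Between arrays of the same number Rps7 was higher in siBNC2 in 4 of 4, by 0.34, 0.28, 0.44 and 0.74. With the number as a block its unadjusted limma p was 0.00726, and it did not pass after adjustment. Rps18 lay at 8.72, 8.87, 8.18 and 8.38 in siCTRL and at 8.75, 9.03, 9.05 and 8.60 in siBNC2, with a difference of 0.32 ± 0.18 that was 0.20 without siCTRL array 3.

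Rps6, the S6 kinase substrate, lay at 18.41, 18.58, 18.38 and 18.47 in siCTRL and at 18.57, 18.60, 18.47 and 18.27 in siBNC2. The 8 arrays were close together, and the difference was 0.02 ± 0.12. Rps3, at the mRNA entry channel, differed by -0.01 ± 0.13, Rps19, mutated in Diamond-Blackfan anaemia in humans, by -0.03 ± 0.19, and Rps20 by -0.02 ± 0.24. Rps14, lost on one allele in the human 5q- syndrome, differed by -0.09 ± 0.22 and Rps27 by -0.08 ± 0.18.

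The lowest small-subunit differences were those of Rps26 and Rps12. Rps26, at the mRNA exit channel, lay at 12.30, 12.63, 12.37 and 11.52 in siCTRL and at 11.96, 11.86, 12.30 and 11.66 in siBNC2, a difference of -0.26 ± 0.23. It was -0.49 without siCTRL array 4 and -0.12 without siCTRL array 2. Rps12 lay between 17.16 and 17.41 in siCTRL and at 17.30, 17.21, 17.33 and 16.52 in siBNC2. The difference was -0.20 ± 0.18, and it was -0.01 without siBNC2 array 4. The other 10 small-subunit members had differences from -0.07 (Rps16) to 0.21 (Rps15), 8 above 0.

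Within the groups the members deviated together. A deviation is the value of a gene on an array minus its own mean over the 8 arrays. The mean deviation of the 63 members was -0.01, 0.12, -0.09 and -0.18 on siCTRL arrays 1 to 4 and 0.07, 0.16, 0.23 and -0.31 on siBNC2 arrays 1 to 4. On all 8 arrays the mean over all genes lay between -0.01 and 0.01, where the normalization of the arrays holds it near 0. The group means of the members were -0.04 ± 0.12 (SD, n = 4) for siCTRL and 0.04 ± 0.24 for siBNC2, so that their difference of 0.08 was smaller than the spread in either group. Without both arrays numbered 4 the difference was 0.15.

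The members were low on siBNC2 array 4 in both subunits. The large subunit averaged -0.26 and the small subunit -0.38 there, and 54 of the 63 members were below their own mean. This array was the lowest of the 8 for 35 members (55.6%), against 12.4% of all genes, and the highest for 0. Inside siBNC2 it was the lowest array for 52 members (82.5%), against 26.7% of all genes. The opposite end was siBNC2 array 3, where the large subunit averaged 0.20 and the small subunit 0.29 and 54 members were above their own mean. It was the highest of the 8 for 25 members (39.7%), against 15.6% of all genes. On siCTRL arrays 3 and 4, 19 and 18 members were above their own mean, against 52 on siCTRL array 2. On siCTRL array 1 the subunits parted, with a mean of -0.07 for the large and 0.08 for the small subunit.

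**Figure D3:**
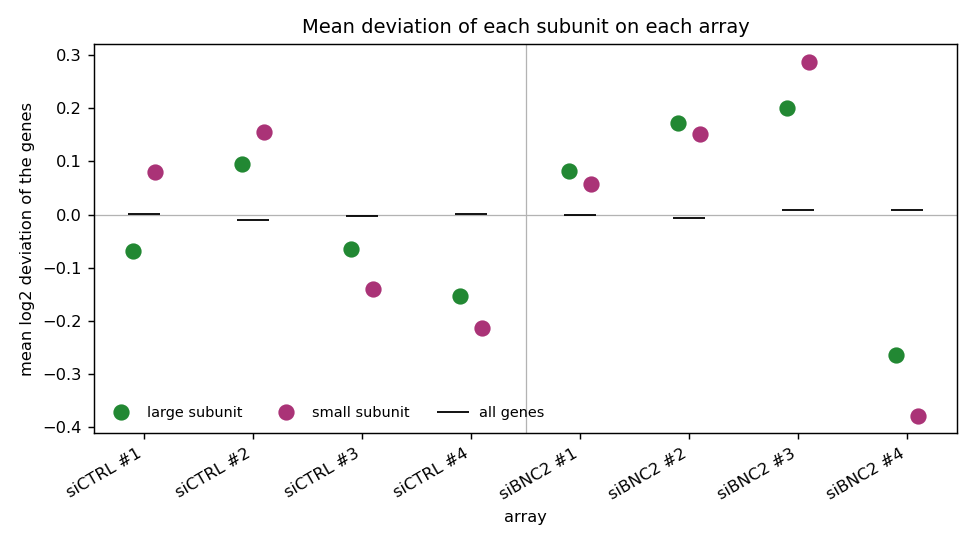
Mean log2 deviation (y axis) of the 40 large-subunit and 23 small-subunit genes on each array (x axis), with the mean over all 22180 genes as a black dash. Both subunits are lowest on siBNC2 array 4 (-0.26 and -0.38) and highest on siBNC2 array 3 (0.20 and 0.29). The mean over all genes, held near 0 by the normalization, stays between -0.01 and 0.01.

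One set of arrays recurred. For 22 of the 63 members (34.9%) the 3 lowest arrays were siCTRL 3, siCTRL 4 and siBNC2 4, against 4.56% of all genes. They were 12 of the 40 large-subunit and 10 of the 23 small-subunit genes. These counts and the 4 genes that follow were chosen after their values were seen. Rps13 lay at 14.67 and 14.59 on siCTRL arrays 1 and 2 but at 13.64 and 13.65 on siCTRL arrays 3 and 4, and at 14.47, 14.38, 14.52 and 13.42 on siBNC2 arrays 1 to 4. Rpl13 lay at 15.29, 15.08, 14.32 and 14.45 in siCTRL and at 15.21, 15.33, 15.34 and 14.03 in siBNC2. The 3 low arrays of both genes are 1 siBNC2 array and 2 siCTRL arrays, and the gap to the other 5 arrays exceeded the difference between the groups. Rpl4, whose protein lines the exit tunnel, lay at 14.82, 14.82 and 14.73 on these 3 arrays and between 15.57 and 15.95 on the other 5. Rps25 lay at 11.25, 11.32 and 11.03 on them and between 11.67 and 12.16 on the others. Other members did not share the split, such as Rps3, Rps4x and Rpl8.

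**Figure D4:**
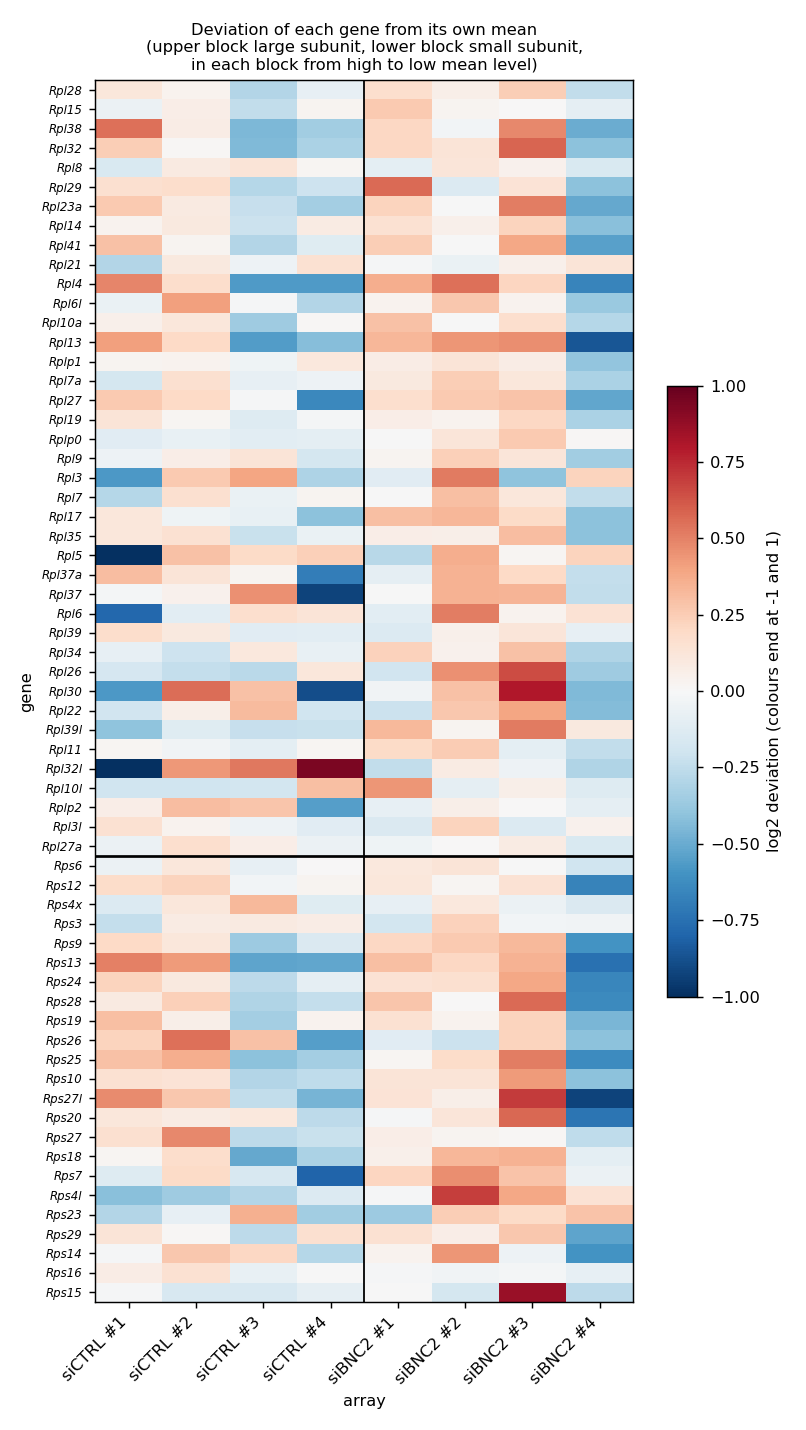
Log2 deviation of each of the 63 genes (y axis) from its own mean on each array (x axis), in red above and blue below it, with the large subunit above the line and the small subunit under it. The siBNC2 array 4 column is mostly blue in both blocks, where 54 of 63 genes were below their own mean, and siBNC2 array 3 is mostly red.

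Probe sets of the same gene often disagreed. Of the 23 members with several probe sets, 13 had probe sets whose means were more than 5 log2 units apart, and in 13 the probe sets differed in the sign of the difference. Rpl4 had a probe set with a mean of 18.3 and a difference of -0.04, and another with a mean of 12.5 and a difference of 0.51. The second lay at 13.55, 12.81, 11.32 and 11.37 in siCTRL and at 13.24, 13.58, 13.07 and 11.21 in siBNC2, so that the low arrays of Rpl4 came from this probe set. The wide split of Rpl13 came mostly from its probe set with a mean of 12.5, which ran from 11.19 to 13.32. Its probe set with a mean of 17.2 had the same 3 lowest arrays but ran only from 16.87 to 17.44. Rps26 had 1 probe set at a mean of 17.1 with a difference of 0.06 and another at 7.00 with -0.58. Rpl41 had 4 probe sets with means of 17.0 to 18.2 and differences from -0.07 to 0.09, and 1 more with a mean of 8.11 and a difference of 0.31. Rps12 had 8 probe sets, of which 6 held identical values.

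Bright probe sets of the members lay nearest to 0. Among the 34 distinct member probe sets with a mean of 15 and over, the median absolute difference was 0.05, and 4 (11.8%) exceeded 0.2, against 16.2% of all probe sets at that level. Among the 41 with a mean under 10 the median was 0.15, and 15 (36.6%) exceeded 0.2, against 23.9% of all. Among the 20 in between, 7 (35.0%) exceeded 0.2, against 19.5% of all. Probes differ in how strongly they bind, so these means do not order the genes by transcript number.

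The array did not cover the ribosome fully under the rule for 1 symbol. Of 80 core ribosomal proteins, 56 were members, and 3 more were measured under symbols outside the pattern. These were Fau (-0.11 ± 0.19), which encodes RPS30, Rps3a1 (-0.11 ± 0.24) and Rpsa. Another 12, Rpl10 and Rpl13a among them, had only probe sets annotated with several symbols, and 9 had no probe set with that symbol. The 57 probe sets that joined 1 ribosomal protein symbol with others had a median difference of 0.04, with 37 higher and 20 lower in siBNC2. Some dim members had a bright probe set of this kind, such as Rps16, with a mean of 3.79 in its own probe set and 17.2 in the shared one, and Rpl27a, with 3.65 and 17.7. The shared sets differed by -0.03 for Rps16 and -0.06 for Rpl27a. Of the members 5 lay below the 40th percentile of all genes.

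Genes that make and use ribosomes were read from lists, none of which had a member past the adjusted test. Of all genes 51.9% were higher in siBNC2. Genes of a list share the same arrays, so the counts are not independent observations. Ribosome assembly factors had a median difference of 0.11, with 54 of 65 higher in siBNC2. Examples were Ddx18, an RNA helicase (0.29 ± 0.14), and Bop1, of the PeBoW complex (0.28 ± 0.15). The mean deviation of these 65 genes ran from -0.37 to 0.16 in siCTRL and from -0.27 to 0.40 in siBNC2, wider than their median difference. RNA polymerase I subunits and factors had a median of 0.09, with 12 of 15 higher. Translation factors whose mRNAs carry a 5′ TOP had a median of 0.07, with 13 of 18 higher. Among them only Btf3, of the nascent chain complex, reached an unadjusted p under 0.05 (0.30 ± 0.12). Genes that host small nucleolar RNAs in their introns, several of which are TOP mRNAs, had a median of 0.19, with 15 of 17 higher. The mean deviation of these host genes ran from -0.40 to 0.15 in siCTRL and from -0.38 to 0.44 in siBNC2. Mitochondrial ribosomal proteins had a median of 0.04 (46 of 71 higher) and initiation factors 0.01 (13 of 21). The small nucleolar RNAs themselves had -0.05 (31 of 73), ribosome quality control genes -0.08 (3 of 11) and proteasome subunits -0.01 (18 of 38). The mTOR pathway and S6 kinases had a median of -0.08, with 7 of 22 higher, and Myc and its partners -0.11, with 3 of 11 higher.

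The array pattern of the members was partly found in these lists. On siBNC2 array 4 the mean deviation was -0.27 for assembly factors, -0.38 for the host genes of small nucleolar RNAs, -0.22 for TOP translation factors, -0.31 for 71 mitochondrial ribosomal proteins, -0.29 for 38 proteasome subunits and -0.60 for 73 small nucleolar RNAs. Initiation factors (-0.04) and the mTOR list (0.12) did not show it. On siCTRL array 4 assembly factors averaged -0.37 and host genes -0.40, against -0.18 for the ribosomal proteins. The interferon-stimulated genes (-2.67) and Bnc2 (8.18) also stood apart on siBNC2 array 4, and their part in the low values of the members was not tested.

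**Figure D5:**
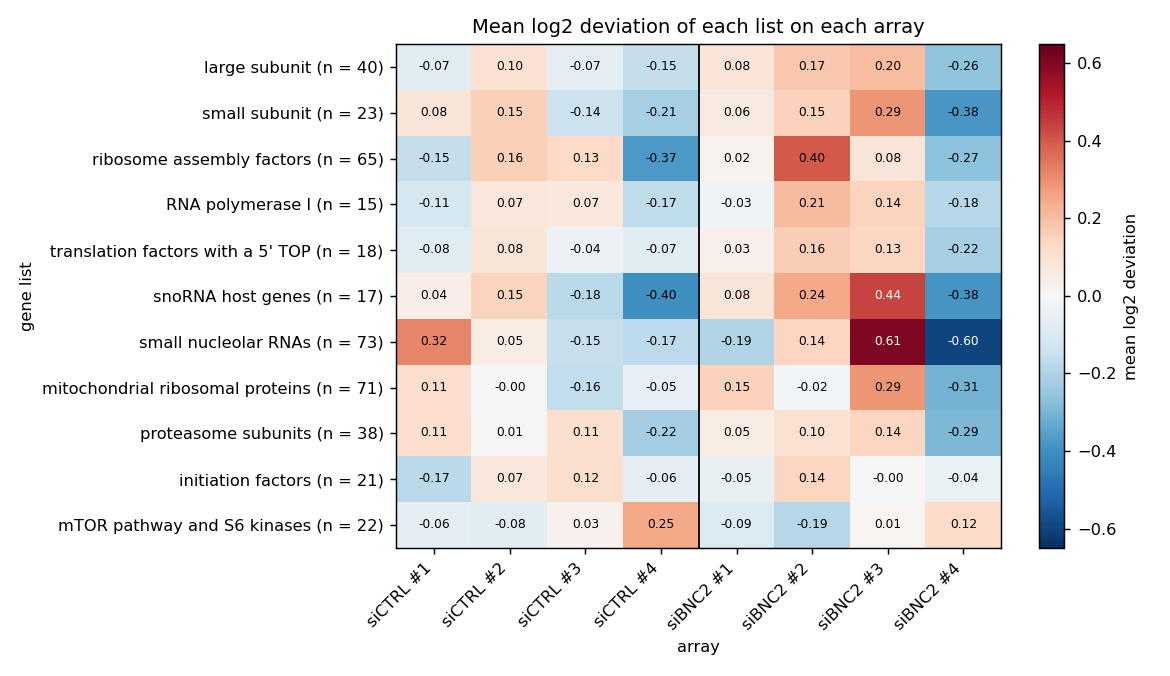
Mean log2 deviation of 11 gene lists (y axis, with the number of genes measured) on each array (x axis), with the value printed in each cell. On siBNC2 array 4 both ribosomal subunits, the assembly factors and the small nucleolar RNAs are below 0, from -0.26 to -0.60, while the mTOR list is at 0.12.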

How the data were processed

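RNA of 8 samples was labelled with biotin and hybridised to 1-colour mouse gene arrays. The authors ran Affymetrix Power Tools (version not given in the sources used here) to correct for GC content, scale intensities and apply RMA to core genes, so that the deposited values are quantile-normalized log2 values per probe set. This step would hide a common shift of most genes. Of 41345 probe sets, 23521 carried 1 symbol, 1820 several and 16004 none. Probe sets with 1 symbol were averaged per gene, including 7 member probe sets that repeated the values of another. Samples were grouped by the labels. The study calls its cell-line replicates independent and treated both groups together in each round of replicates. Whether the array number names the round is not stated, so the fit without it was kept. The fit with it as a block is given for the counts of genes, the subunit medians, Rps7 and Rpl39l. The correlation between arrays was 0.983 to 0.996, and their number limits the precision.

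siBNC2 was compared with siCTRL by the two-sided moderated test of limma 3.58.1 (R 4.3.3, no covariate), tested on simulated data, with Benjamini-Hochberg adjustment over 22180 genes and a threshold of 0.05. Named members were tested also by exact two-sided permutation. ± is the SE of limma unless marked SD. The 30 named members were the stalk, 5S and other genes of known role and the paralogs with their core genes, and in each subunit the 4 with the smallest p, the 2 highest and 2 lowest differences, the 2 widest ranges and members without overlap. Near background means a mean under the 40th percentile of all genes (5.66). Members and lists were chosen with earlier results of these data known. Start sequences came from RefSeq. Alternatives covered normalization, centring, dim genes, probe sets, priors, weights, a block and left-out arrays.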

Additional observations from a re-analysis of the deposited data

Results flagged for a closer look

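Groups of 4 arrays were tested over the named members and the mean deviations of the subunits and of all members. In 7 of the 66, 1 array stood further from the others than Dixon's 95% critical value allows. Chance gives about 1 in 20 only for independent groups chosen without their values. Some named members were chosen by their values, and all share the same 8 arrays. The 7 of 66 can therefore not be set against that rate. The flagged values on siCTRL array 1 were, in probe sets with 1 symbol, Rpl5 at 8.35 and Rps3 at 15.5. The other siCTRL arrays lay at 9.59 to 9.69 for Rpl5 and at 15.86 to 15.88 for Rps3. On siCTRL array 4 they were Rpl10l at 6.14, against 5.64 to 5.66, and Rps20 at 9.29, against 9.63 to 9.66. On siBNC2 array 4 they were Rplp1 at 13.9, against 14.37 to 14.42, Rps12 at 16.5, against 17.21 to 17.33, and Rps27 at 8.63, against 8.90 to 8.95. All but Rpl10l stood on the low side.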

How the results depend on the processing

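The number of genes and of ribosomal protein genes past the adjusted threshold was 0 in limma and under each alternative, and Rps4l and Rpl39l had an unadjusted p under 0.05 in each fit of all genes. From 32 to 53 of the 63 members had a higher mean in siBNC2 when 1 array was left out, and 50 without both arrays numbered 4. The large minus small subunit median lay between -0.026 (without siBNC2 replicate 4) and 0.13 (without siBNC2 replicate 3). The sign was kept under each alternative by Rpl10l, Rpl26, Rpl30, Rpl39l, Rpl6, Rplp0, Rps12, Rps18, Rps4l and Rps7, though its size moved, and turned for the other 20 named members in 67 of 538 values. The turned values without both arrays numbered 4 were Rpl3 -0.024, Rpl32l 0.070, Rplp1 0.087, Rps19 0.13, Rps20 0.13, Rps27l 0.13 and Rps3 0.030. After another quantile normalization they were Rpl39 0.011, Rps20 0.027, Rps27l 0.0089, Rps3 0.012 and Rps6 -0.069, with array weights Rps19 0.026, Rps20 0.017 and Rps27l 0.029, and with the brightest probe set Rpl41 -0.070, Rps20 0.11 and Rps26 0.061. Centring gave Rpl22 -0.0042, and probe sets of several symbols gave Rpl39 0.032. The cause was not tested. With 1 array left out, differences ran from -0.026 to 0.14 for Rpl11, -0.12 to 0.15 for Rpl22, -0.060 to 0.27 for Rpl3, -0.76 to 0.013 for Rpl32l, -0.061 to 0.28 for Rpl38, -0.068 to 0.032 for Rpl39, -0.086 to 0.038 for Rpl3l, -0.075 to 0.23 for Rpl41, -0.16 to 0.29 for Rpl5, -0.11 to 0.062 for Rplp1 and -0.24 to 0.043 for Rplp2. They ran from -0.25 to 0.097 for Rps14, -0.14 to 0.12 for Rps19, -0.22 to 0.22 for Rps20, -0.18 to 0.070 for Rps27, -0.25 to 0.29 for Rps27l, -0.087 to 0.054 for Rps3, -0.15 to 0.0011 for Rps4x and -0.024 to 0.086 for Rps6. For those that kept their sign or turned only otherwise, they ran from 0.02 to 0.26 for Rpl10l, 0.11 to 0.45 for Rpl26, 0.06 to 0.54 for Rpl30, 0.08 to 0.40 for Rpl6, 0.40 to 0.56 for Rpl39l, 0.14 to 0.23 for Rplp0, -0.28 to -0.01 for Rps12, 0.20 to 0.43 for Rps18, -0.49 to -0.12 for Rps26, 0.47 to 0.71 for Rps4l and 0.26 to 0.59 for Rps7. With arrays left out, an unadjusted p under 0.05 was also reached by Rpl32l without siCTRL replicate 1, Rps7 and Rps18 without siCTRL replicate 2, Rps26 without siCTRL replicate 4, Rps7 and Rpl17 without siBNC2 replicate 4, and Rpl26 and Rps26 without both arrays numbered 4. In each of these fits 3 or 4 of the 63 members reached that level, Rps4l and Rpl39l included, against 2.91% to 4.95% of all genes. For numbers 1 to 4, the deviations of arrays with the same number correlated over all genes at 0.390, 0.415, -0.0010 and 0.667. Those of arrays with different numbers correlated at -0.53 to 0.401. Numbers 2 and 4 lay above all pairs of different numbers. Number 3 did not, nor did number 1, since siCTRL array 1 correlated with siBNC2 array 3 at 0.401. With the replicate number as a block, 1207 genes in place of 708 had an unadjusted p under 0.05, and 3 members in place of 2, with Rps7 added, and 0 passed after adjustment. The subunit medians under the replicate block were 0.09 and 0.02, their gap 0.07 and the number of members higher in siBNC2 43. Counting identical probe sets once, an alternative chosen after seeing the data, gave 43 members higher too.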
